A study of Rattus norvegicus with 4 samples.

Results

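Voltage-gated sodium channels were followed through 7 of the 720 genes named on the array, which were read by 12 of its 1263 gene probe sets. A probe set is a group of short probes whose signals are combined into 1 intensity for a transcript. The 12 were all the probe sets to which the platform annotation gave the symbol Scn1a, Scn2a, Scn3a, Scn4a, Scn8a, Scn9a or Scn2b. Scn8a had 3 of them, Scn3a, Scn4a and Scn9a had 2 each, and Scn1a, Scn2a and Scn2b had 1 each. The rule itself uses names and no measured value. The 2 Scn3a probe sets come from 1 sequence record, as do the 2 of Scn4a, so within a pair they are not independent readings.

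The cells were primary neurons of Rattus norvegicus cortex taken on embryonic day 17 and grown for 14 days in Neurobasal medium with B27 supplement. The 2 KCl arrays, called KCl 1 and KCl 2, carried RNA of cultures given 25 mM KCl for 4 h, and the 2 control arrays, control 1 and control 2, RNA of cultures given phosphate-buffered saline (PBS) for 4 h. The sources used here give no strain or genotype. The description label words all 4 samples as unstimulated, so the groups were taken from the titles and treatment protocols. The labels do not say that the arrays of a group come from separate cultures, and p-values then measure only the spread between these arrays, possibly technical.

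A sodium channel is built around an alpha subunit, a long membrane protein that forms the pore, senses voltage and closes itself after opening, and beta subunits, small proteins with an immunoglobulin-like domain that adjust gating and bring the channel to the cell surface. In brain neurons these channels start and carry the action potential and are concentrated at the axon initial segment. Raised potassium depolarizes neurons for a prolonged time, which holds many sodium channels inactivated and opens calcium channels that signal to the nucleus. The comparison asks whether transcripts of the channel subunits differed after 4 h of this stimulus.

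At rest, Scn2a and Scn3a gave the brightest sodium channel probe sets, and the beta subunit gene Scn2b gave a dim one. After KCl no sodium channel probe set passed the test, which was limma with Benjamini-Hochberg adjustment over all probe sets tested and a threshold of 0.05. The call count was 0 of the 10 that were bright enough to be tested, against 10.8% of all 947 probe sets tested, made up of 5.49% that rose and 5.28% that fell. One of the 10, a probe set of Scn4a, had an unadjusted p below 0.05 by limma and was lower, against 25.6% of all tested in either direction and 16.3% lower, and none did by an ordinary t statistic. In 7 of the 12 probe sets both KCl values lay below both control values, in 0 both lay above, and in 5 the groups overlapped. Of all 1263 gene probe sets, 31.3% had both KCl values below and 21.3% had both above.

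The arrays had nearly equal 2% trimmed means, from 502.0 to 502.4, so the deposited intensities were used without further scaling, in arbitrary units. The background limit was set at 73.7, the highest value that any of 19 bacterial and yeast control probe sets reached on any array. Values up to that limit are called within background. Fos, an immediate-early gene that neuronal activity induces, checked the labels, with log2 changes of 3.85 to 4.53 on its 3 probe sets. Listed genes were matched to probe sets by symbol alone, and 118 gene probe sets had no symbol. A listed gene that is not counted as measured may therefore still have a probe set. Neuron markers were present. Of 13 genes listed, 9 were measured by 18 probe sets, among them Gap43, a growth cone protein gene, with intensities from 8349 to 10310, and their summed intensity was 37321 and 37771 after KCl, against 37898 and 39212 in controls.

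The order of the probe sets at rest is an order of brightness. Probe sets bind with different strength, so it is not an order of transcript number, and the values are not scaled per length. On control 1 and control 2, Scn2a M22254_at, which reads the Nav1.2 alpha subunit of axons, had intensities of 1126.3 and 1018.6 and was brighter than 87.2% and 86.8% of the gene probe sets. Scn3a Y00766_g_at, which reads the Nav1.3 alpha subunit known for its high level before birth, followed with 765.9 and 666.8, above 82.7% and 81.3% of the gene probe sets. The 2 control values of Scn2a lay above those of Scn3a. The other Scn3a probe set, Y00766_at, had 214.6 and 197.5 in controls and so was several times dimmer than its partner from the same record.

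Scn1a M22253_at, for the Nav1.1 alpha subunit that inhibitory interneurons rely on, had 220.6 and 136.8 in controls, a range that overlapped with the dimmer Scn3a probe set, so the order of these neighbours is not settled. Scn4a M26643_g_at, for the alpha subunit of skeletal muscle, had 111.6 and 100.8 in controls, and Scn8a L39018_at, for the Nav1.6 alpha subunit of the mature axon initial segment and nodes of Ranvier, had 98.4 and 77.7. These 6 probe sets were the ones above background on both control arrays.

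The remaining 6 probe sets were at or near background at rest. Scn9a AF000368_at, for the Nav1.7 alpha subunit of sensory neurons, had 74.2 on control 1 and 44.5 on control 2, so only the first was above background. Scn2b U37147_at, for the beta subunit that is linked to the alpha subunit by a disulfide bond, had 55.5 and 60.0, above 34.8% and 37.2% of the gene probe sets. The control ranges of each neighbouring pair in this part of the order overlapped, from Scn9a AF000368_at and Scn2b through Scn8a AF049239_s_at (61.5 and 51.9), Scn9a U79568_s_at (22.1 and 52.5) and Scn8a M27223_at (26.6 and 27.5) to Scn4a M26643_at (19.3 and 29.2). Background was common on this array, with 34.5% of the gene probe sets within it in both groups, against 5 of the 12 here.

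**Figure D1:**
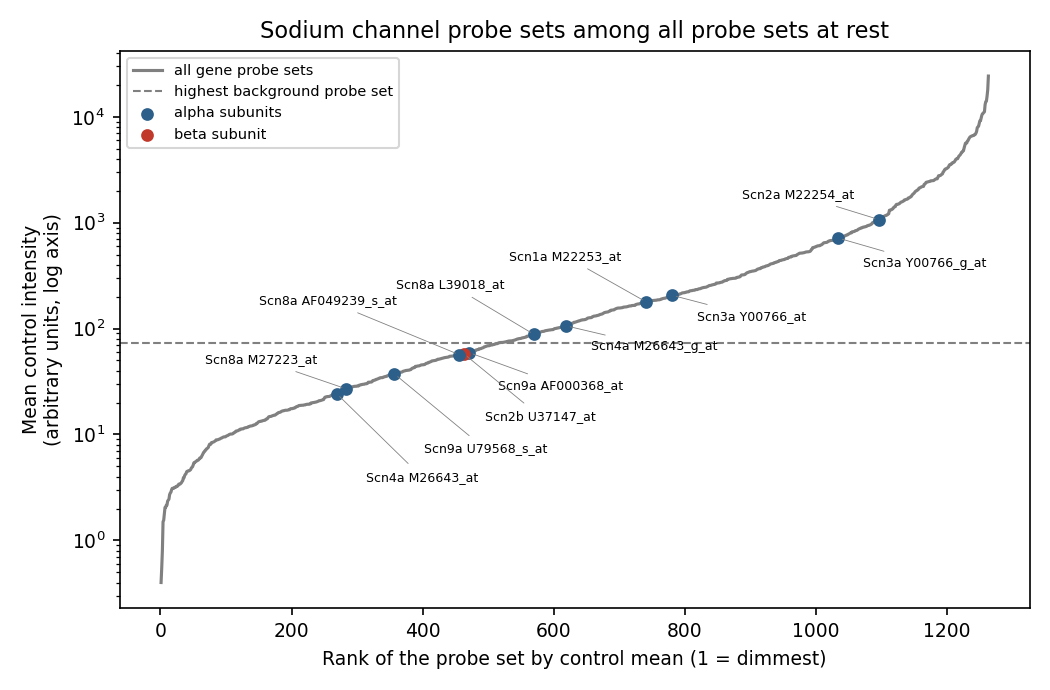
Mean control intensity (arbitrary units, log axis) of all 1263 gene probe sets in rank order, with the 12 sodium channel probe sets marked by subunit type. Scn2a and a probe set of Scn3a lie in the upper part of the curve, and the Scn2b probe set lies under the dashed background line at 73.7.

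**Figure D2:**
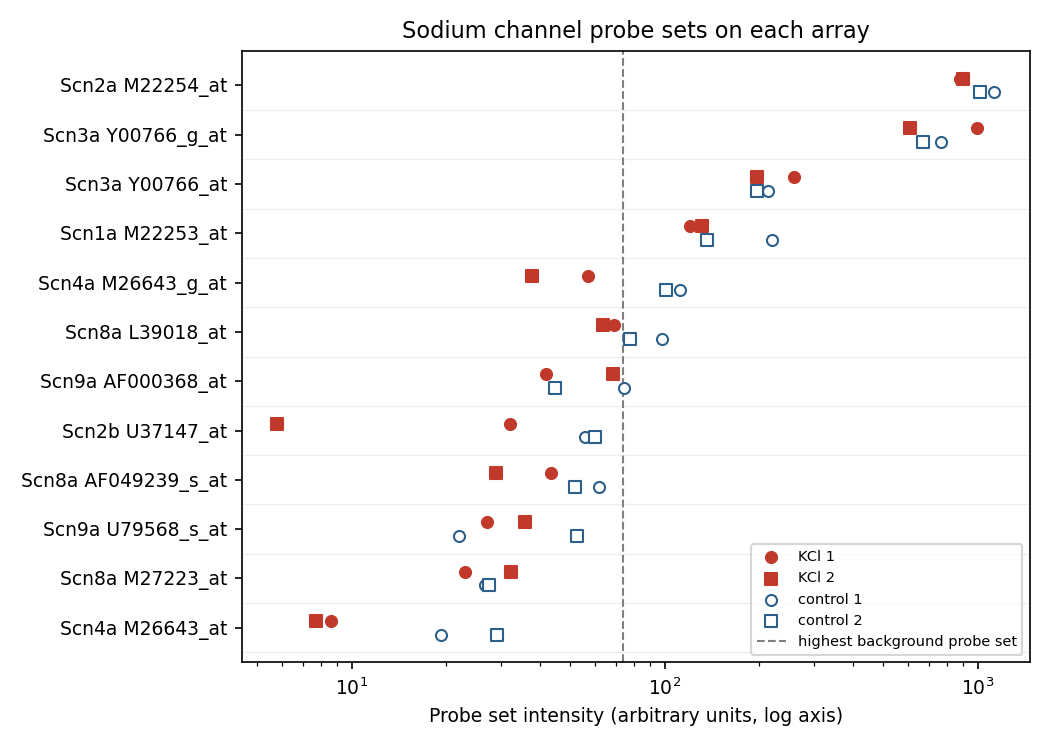
Intensity (arbitrary units, log axis) of each sodium channel probe set on the 2 KCl arrays (filled) and the 2 control arrays (open), ordered by control mean. The KCl symbols lie left of both control symbols for 7 probe sets, and the Scn3a, Scn9a and M27223_at rows overlap.

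Scn2a and Scn3a are neighbouring genes in RefSeq, as are Scn1a and Scn9a. Windows of 300 bases around the annotated gene start, 250 before it and 50 after it, were read from RefSeq's GRCr8 build for 6 of the 7 genes. Scn1a is named only. The windows were searched on both strands, with all matches to 1 motif kept, for 4 motifs of factors known for activity responses or for sodium channel genes. The windows of the 2 brightest genes and that of Scn8a are shown, because they hold the motif matches or, for Scn2a, none. Capitals mark a match, and a match is a description of letters and not a binding site.
Scn2a, chr3:70710706-70711005, plus strand: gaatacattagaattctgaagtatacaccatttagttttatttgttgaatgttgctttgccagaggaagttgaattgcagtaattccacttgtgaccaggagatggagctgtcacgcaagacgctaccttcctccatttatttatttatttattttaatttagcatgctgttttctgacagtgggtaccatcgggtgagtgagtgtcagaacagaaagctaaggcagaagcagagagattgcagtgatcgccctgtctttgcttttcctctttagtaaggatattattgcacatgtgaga
Scn3a, chr3:70666149-70666448, minus strand: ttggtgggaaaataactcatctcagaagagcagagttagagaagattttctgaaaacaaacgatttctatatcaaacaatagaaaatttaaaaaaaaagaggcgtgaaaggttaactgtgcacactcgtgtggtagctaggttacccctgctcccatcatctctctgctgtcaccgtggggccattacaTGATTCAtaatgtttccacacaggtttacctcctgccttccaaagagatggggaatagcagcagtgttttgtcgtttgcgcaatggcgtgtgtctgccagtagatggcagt
Scn8a, chr7:133860977-133861276, plus strand: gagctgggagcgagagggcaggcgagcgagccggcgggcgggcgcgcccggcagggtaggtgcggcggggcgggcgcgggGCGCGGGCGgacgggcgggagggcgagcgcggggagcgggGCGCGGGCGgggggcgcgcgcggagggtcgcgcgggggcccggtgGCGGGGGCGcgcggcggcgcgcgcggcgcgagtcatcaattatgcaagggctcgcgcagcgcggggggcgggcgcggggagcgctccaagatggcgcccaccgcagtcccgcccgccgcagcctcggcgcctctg

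The cAMP response element, TGACGTCA, to which CREB binds, was in 0 of the 6 windows and in 1.83% of the 33365 distinct windows of all genes. The AP-1 motif TGANTCA, to which Fos and Jun proteins bind, was in the Scn3a window, where it begins 61 bases before the annotated start, and in 7.34% of all windows. The Egr1 motif GCGNGGGCG was in the Scn8a window, with 3 matches that do not overlap, and in 4.99% of all windows. The left part of the element that the repressor REST recognizes, TTCAGCACC, was in 0 of the 6 windows and in 0.357% of all windows. The windows also differed in base composition, with 60 CpG in that of Scn8a, 4 in that of Scn2a and 2 in that of Scn2b, against a median of 7 over all windows.

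After KCl, Scn2a M22254_at had 876.0 and 895.0, against 1126.3 and 1018.6 in controls. Both KCl values lay below both control values, and the replicates of each group were close. The log2 change was -0.27 ± 0.12 (SE), with a 95% interval of -0.55 to 0.0011, and did not pass (limma adjusted p = 0.19). The group means were 885.5 ± 13.4 after KCl and 1072 ± 76 in controls (SD, n = 2 arrays per group). The interval is the narrowest among the 10 tested and leaves out a change of 2-fold in either direction. The median log2 change of all 947 tested probe sets was -0.10.

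The 2 KCl arrays disagreed on Scn3a. Y00766_g_at had 992.4 on KCl 1 and 608.8 on KCl 2, against 765.9 and 666.8 in controls, so the KCl values lay on both sides of the control pair. Its partner Y00766_at had 258.1 and 196.5 after KCl, against 214.6 and 197.5 in controls, with KCl 1 again the highest array. Their log2 changes were 0.12 ± 0.22 and 0.13 ± 0.21 (SE), and neither passed (limma adjusted p = 0.76 and 0.73), with 95% intervals of -0.37 to 0.62 and -0.34 to 0.60. For Y00766_g_at the direction rests on which KCl array is kept: without KCl 2 the log2 change was 0.47 and passed (limma adjusted p = 0.035), and without KCl 1 it was -0.23 (adjusted p = 0.49), over a range of adjusted p of 0.035 to 0.98 when single arrays were left out. The signal of Y00766_g_at divided by that of Scn2a on the same array was 1.13 on KCl 1 and 0.68 on KCl 2, against 0.68 and 0.66 in controls.

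Scn1a M22253_at had 120.3 and 131.4 after KCl, against 220.6 and 136.8 in controls. The KCl pair lay just below the lower control value, and the control pair differed by a factor of 1.61. The log2 change of -0.47 ± 0.28 (SE; 95% interval -1.10 to 0.17) did not pass (limma adjusted p = 0.32), and it was -0.12 without control 1 and -0.81 without control 2. Some inhibitory neuron markers fell on the same arrays. Of 8 listed genes 5 were measured by 7 probe sets. Of these, 4 fell (2 of Sst and 1 each of Gad1 and Slc32a1) and 0 rose, against 5.28% and 5.49% of all tested. Npy and Cck did not pass and had both KCl values above both control values. The summed intensity was 10874 and 11551 after KCl, against 16822 and 16696 in controls. When either control array was left out, 1 of the 7 passed, a probe set of Sst. Their part in the Scn1a values was not tested, and in RNA of a whole culture fewer cells of a type and less RNA per cell cannot be told apart.

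Scn8a was read by 3 probe sets, none of which was above background after KCl. L39018_at had 69.0 and 63.4 after KCl, against 98.4 and 77.7 in controls. With the KCl values set to the background limit, the ratio of control to KCl was 1.19, which leaves out the spread between arrays. Its measured means were 66.2 ± 4.0 after KCl and 88.1 ± 14.6 in controls (SD, n = 2 arrays per group), its log2 change was -0.40 ± 0.33 (SE), and it did not pass (limma adjusted p = 0.50). AF049239_s_at had 43.2 and 28.9 after KCl, against 61.5 and 51.9 in controls. All 4 of these values were within background, and its log2 change of -0.68 ± 0.50 did not pass (limma adjusted p = 0.44). M27223_at, with 23.1 and 32.2 after KCl against 26.6 and 27.5 in controls, fell under the filter that left out the dimmest 25% of probe sets and showed overlapping groups.

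Scn4a had the smallest p among the sodium channel probe sets. M26643_g_at had 57.1 and 37.7 after KCl, against 111.6 and 100.8 in controls, so the KCl pair was within background and the control pair above it. The means were 47.4 ± 13.7 after KCl and 106.2 ± 7.6 in controls (SD, n = 2 arrays per group). With the KCl values set to the background limit, the ratio of control to KCl was 1.44, which leaves out the spread between arrays. The log2 change of -1.19 ± 0.37 (SE; 95% interval -2.05 to -0.34) did not pass (limma adjusted p = 0.081). It passed without KCl 1, at -1.49 (adjusted p = 0.042), and its adjusted p ran from 0.042 to 0.30 when single arrays were left out. The second probe set, M26643_at, had 8.6 and 7.7 after KCl, against 19.3 and 29.2 in controls. It separated the groups in the same direction, within background on all 4 arrays and under the filter, so it was tested only in the fit that kept dim probe sets (log2 change -1.54 ± 0.51, adjusted p = 0.15). The skeletal muscle markers measured, 3 of 9 listed, were the acetylcholine receptor genes Chrna1, Chrnd and Chrng, with a summed intensity of 571.6 and 645.1 after KCl, against 575.7 and 562.9 in controls, and 0 of the 3 passed.

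Scn9a showed no separation of the groups on either probe set. AF000368_at had 41.9 and 68.5 after KCl, against 74.2 and 44.5 in controls, and U79568_s_at had 27.0 and 35.7, against 22.1 and 52.5. In both, 1 control array was the highest of the 4 and the control pair differed more than the group means. The log2 changes were -0.10 ± 0.47 and -0.13 ± 0.69 (SE; limma adjusted p = 0.92 and 0.93), and their 95% intervals, -1.19 to 0.98 and -1.70 to 1.44, are too wide to leave out a change of 2-fold downward.

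Scn2b, the 1 beta subunit among the 7 genes, had 32.1 on KCl 1 and 5.8 on KCl 2, against 55.5 and 60.0 in controls. Both KCl values lay below both control values, and the KCl pair differed by a factor of 5.53. All 4 values were within background, so the size of the change is not measured and no fold is given. The fitted log2 value of -2.08 ± 0.91 (SE; 95% interval -4.17 to 0.0052) did not pass (limma adjusted p = 0.19) and depends on the background: it was -1.19 with a pseudocount of 16, -0.85 without KCl 2 and -3.31 without KCl 1.

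**Figure D3:**
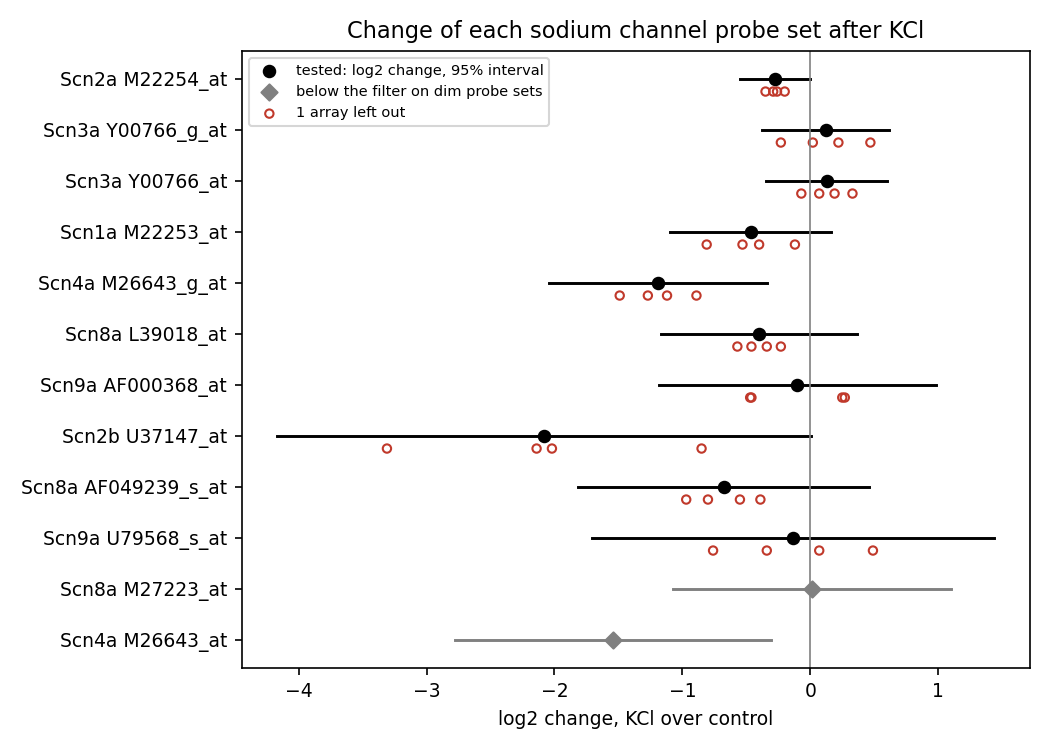
Log2 change after KCl over control for each sodium channel probe set, with the 95% interval from limma (black for the 10 tested, grey for the 2 below the filter on dim probe sets) and the values with 1 array left out (open red). The interval is narrowest for Scn2a at the top, -0.55 to 0.0011, and widest for Scn2b, -4.17 to 0.0052. The values with 1 array left out lie on both sides of 0 for Scn3a and Scn9a.

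As a group, the 10 tested probe sets had a median log2 change of -0.34, with a range of -2.08 to 0.13, against a median of -0.10 over all 947. Their log2 change was below 0 in 8 of 10, against 60.3% of all tested. The values of 6 of the 10 lay lower in both KCl arrays, against 36.5% of all tested, and 0 lay higher in both, against 21.4%. Of the 7 of 12 probe sets with both KCl values lower, 4 were above background in at least 1 array, those of Scn2a, Scn1a, Scn4a and Scn8a. The median SE of the 10 was 0.35, against 0.21 over all tested probe sets, and the smallest log2 change that passed anywhere was 0.40 in size.

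**Figure D4:**
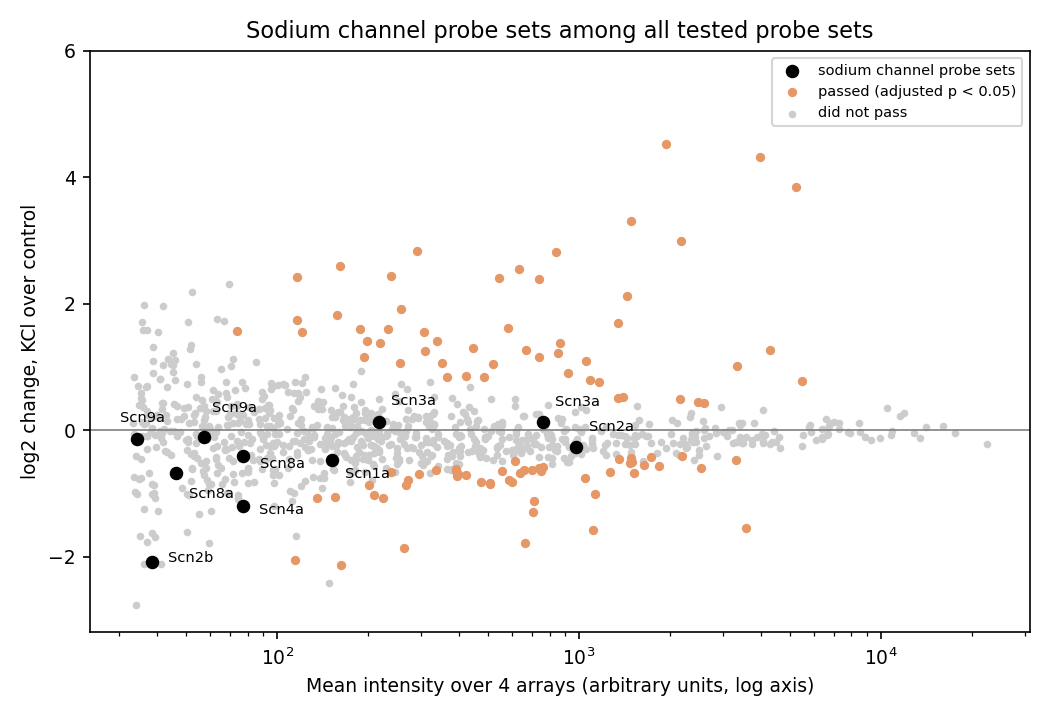
Log2 change after KCl over control against the mean intensity of the 4 arrays (log axis) for the 947 tested probe sets, with the 10 sodium channel probe sets in black and the probe sets that passed in orange. The spread widens toward dim probe sets on the left, where Scn2b and Scn4a lie among others that did not pass.

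Lists of related genes covered other alpha and beta subunits, anchoring and adhesion, modulators, other sodium-carrying channels, and the sodium pump and exchangers. Of their 33 tested probe sets, 2 passed (6.06%), against 10.8% of all tested. Of 4 other alpha subunit genes listed, Scn7a, Scn10a and Scn11a were measured, and 0 of their 2 tested probe sets passed in either direction. Scn11a, for an alpha subunit of pain-sensing neurons, had 53.2 and 50.2 after KCl, against 25.7 and 34.0 in controls, all within background (log2 change 0.81 ± 0.53). The brighter probe set of Scn7a, an alpha-like protein that responds to sodium concentration, had 102.5 and 104.1, against 102.3 and 80.5 (log2 change 0.19 ± 0.29). Scn10a lay within background on every array. None of the 3 other beta subunit genes listed had a probe set with its symbol. The 118 gene probe sets without a symbol were not searched for them, so whether the array reads them is not known here.

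Among 16 genes for anchoring and adhesion at the axon initial segment, nodes and synapses, 4 were measured by 5 tested probe sets. Of these, 1 fell and 0 rose, against 5.28% and 5.49% of all tested. A limma unadjusted p below 0.05 was found for 3 of the 5, against 25.6% of all 947 tested. The probe set that fell was of Agrn, the proteoglycan agrin. It had 1432.0 and 1508.8 after KCl, against 2028.7 and 1937.3 in controls (log2 change -0.43 ± 0.11; limma adjusted p = 0.038). The other Agrn probe set had -0.39 ± 0.11 (adjusted p = 0.059). The call was lost without control 1, without control 2 and without KCl 1, and without KCl 2 both Agrn probe sets passed. Cntn1, for the axonal adhesion protein contactin 1, which binds sodium channels, had 1074.8 and 1056.7 after KCl, against 1190.1 and 1495.5 in controls, and did not pass (log2 change -0.32 ± 0.14). Cntn2, for contactin 2, had a log2 change of -0.17 ± 0.20.

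Of 17 modulator genes, 6 were measured by 11 tested probe sets, and 0 passed in either direction by limma. A limma unadjusted p below 0.05 was found for 1 of the 11, against 25.6% of all 947 tested. The 4 with the smallest p were a probe set of Camk2d, a calcium/calmodulin-dependent kinase (log2 change -0.36 ± 0.11), Prkca, a protein kinase C (1.29 ± 0.56), Calm3, a calmodulin gene (-0.21 ± 0.10), and the tyrosine kinase gene Fyn (-0.19 ± 0.11). Prkca had 61.0 and 82.1 after KCl, against 19.0 and 44.2 in controls, close to background.

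Of 14 listed genes for other sodium-carrying channels, 6 were measured, with 7 tested probe sets. Of these, 1 fell and 0 rose, against 5.28% and 5.49% of all tested. A limma unadjusted p below 0.05 was found for 3 of the 7, against 25.6% of all 947 tested. Asic2, an acid-sensing channel, fell on Y14635_s_at, with 548.6 and 674.7 after KCl, against 921.0 and 901.7 in controls (log2 change -0.58 ± 0.14; limma adjusted p = 0.035). This call too was lost without control 1, without control 2 and without KCl 1. Its other probe set, at -0.34 ± 0.12, did not pass. Its relative Asic1 had 226.7 and 216.1 after KCl, against 138.7 and 129.9 in controls, and did not pass (log2 change 0.72 ± 0.20; limma adjusted p = 0.059). Scnn1g, for a subunit of the epithelial sodium channel, stayed within background (1.03 ± 0.53).

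The sodium pump and sodium exchanger genes, which restore the sodium gradient, had 5 of 10 measured by 8 tested probe sets, and 0 passed by limma. A limma unadjusted p below 0.05 was found for 2 of the 8, against 25.6% of all 947 tested. Both were probe sets of Atp1b2, a pump beta subunit of glia, with log2 changes of -0.69 ± 0.21 and -0.43 ± 0.14 (limma adjusted p = 0.080 and 0.10). The pump beta subunit genes Atp1b1 and Atp1b3 had -0.18 ± 0.11 and -0.20 ± 0.15 on their probe sets with the smallest p.

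**Figure D5:**
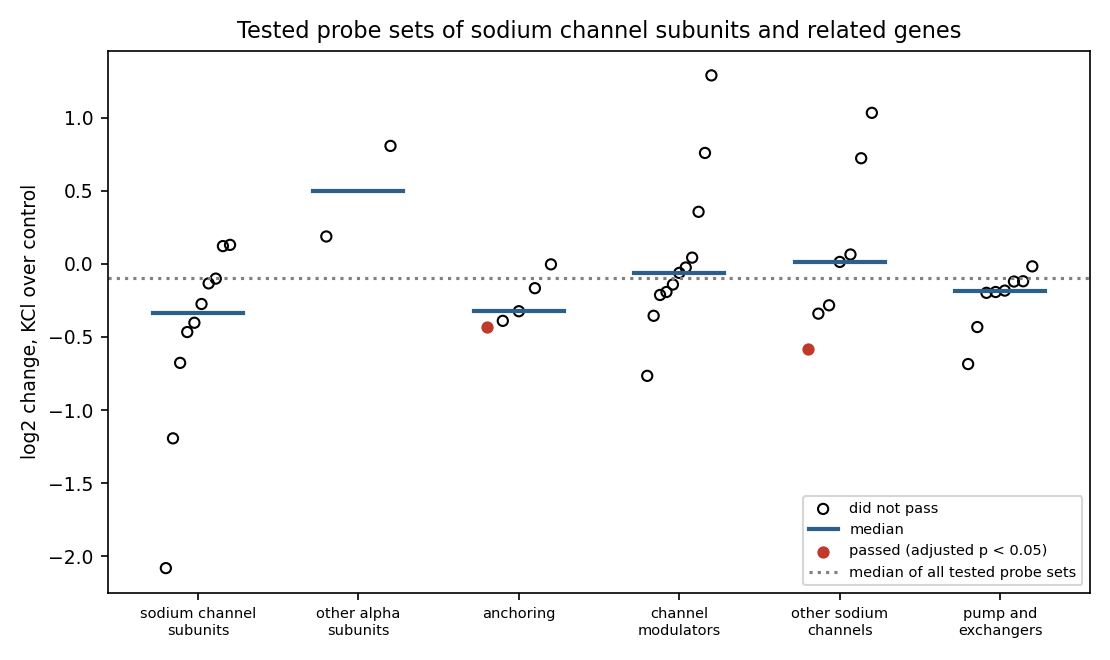
Log2 change after KCl over control of each tested probe set of the sodium channel subunits and of 5 lists of related genes, with list medians in blue and probe sets that passed in red. The 2 red points are Agrn at -0.43 and Asic2 at -0.58, and the dotted line is the median of all tested probe sets, -0.10.

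Astrocyte markers were higher after KCl on the same arrays. Of 10 listed genes 7 had a probe set with their symbol. Gfap, also listed, had none, and the 118 gene probe sets without a symbol were not searched for it. Of the 15 tested probe sets 9 rose and 0 fell, against 5.49% and 5.28% of all tested. The calls were lost without control 1 and without control 2, and 5 rose with the arrays centred on the median. The summed intensity of the astrocyte probe sets was 20919 and 16191 after KCl, against 9464 and 9322 in controls, with KCl 1 the higher of its pair. Slc1a2, a glutamate transporter gene on the astrocyte list, was within background on all 4 arrays and on all 3 of its probe sets. Among the neuron markers 1 of 17 tested probe sets rose, against 5.49% of all tested, and 0 fell, against 5.28%. The probe set that rose was of Snap25. It did not pass when either control array was left out, and without KCl 2 there were 3, since 2 probe sets of Map2, a gene of the dendrite cytoskeleton, also passed as higher. The part of the culture's cell make-up in the sodium channel values was not tested.

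The likeness of other genes was measured as the root mean square difference of log2 intensity over the 4 arrays, after each probe set's own mean was subtracted. The 3 nearest to Scn2a were Nptxr (0.023), Bax (0.024) and Capn2 (0.024), with log2 changes of -0.29 to -0.30, and this Nptxr probe set was within background. The 3 nearest to Scn4a M26643_g_at were Pde4a (0.12), Ncan (0.17) and Synpo (0.17), with log2 changes of -0.99, -0.99 and -0.92. On each of them, as on M26643_g_at, KCl 2 was the lowest array. For both sets of neighbours such likeness follows from picking them by pattern and is not a separate result.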

How the data were processed

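The authors deposited 1 probe set intensity per array on a linear scale, from biotin-labelled cRNA of 5 µg total RNA on 1-colour Affymetrix arrays, per the labels' protocols. How the probes of a set were combined and scaled is not given in the sources used here. Of 1322 probe sets, 59 Affymetrix controls were set aside. The dimmest 25% of the others by mean over the 4 arrays (316) were left out, and 947 were tested.

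KCl was compared with control on log2 intensity with limma 3.58.1 in R 4.3.3 (lmFit, eBayes with an intensity trend, two-sided, Benjamini-Hochberg over the 947). The code was also run on simulated arrays with independent normal noise of the fitted size. Such a run cannot show how the test behaves where real arrays depart from that noise. An exact two-sided permutation test of 2 against 2 arrays reaches 0.33 at best. The number of arrays limits the precision. Probe sets under the filter take values from a fit without it. Symbols come from the platform annotation, and all 12 agreed in gene ID and symbol with RefSeq. Named were all sodium channel probe sets, the list genes that passed or had the 4 smallest p, and the 3 likest. The members and lists were chosen with earlier results of these data known. Alternatives were other scalings, a pseudocount, other filters, a replicate block, each array left out, and other variance models.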

Additional observations from a re-analysis of the deposited data

How the results depend on the processing

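When single arrays were left out, the number of sodium channel probe sets that passed ran from 0 to 1, which was Scn4a M26643_g_at without KCl 1 and Scn3a Y00766_g_at without KCl 2, and it was 0 in the other settings tried. The log2 change turned its sign within the ranges of -0.23 to 0.47 for Scn3a Y00766_g_at, -0.07 to 0.33 for Scn3a Y00766_at, -0.47 to 0.27 for Scn9a AF000368_at and -0.76 to 0.49 for Scn9a U79568_s_at. The cause was not tested. In the other settings (quantile normalization, median centring, scaling to 1 trimmed mean, a pseudocount of 16, no filter, a filter at 50%, the block, no trend and the ordinary t statistic), all 84 values of sodium channel probe sets kept their direction and stayed on the same side of the threshold. The 2 probe sets under the filter had values only with dim probe sets kept. The calls of Agrn and Asic2 were also lost with quantile normalization, without the filter, with the block, without the trend and with the ordinary t statistic. The Snap25 call was lost without the filter, with the block, without the trend and with the ordinary t statistic, and Syp passed as lower with quantile normalization. Of the astrocyte probe sets, 4 passed with the block and 0 without the trend or with the ordinary t statistic. Counts of the gene lists without single arrays were added after seeing the data. The number of all probe sets that passed, 102, was 50 with the replicate block, 21 without the intensity trend and 0 with an ordinary t statistic (157 at an unadjusted p below 0.05), and ran from 11 to 178 with 1 array left out (14 without control 1, 11 without control 2, 178 without KCl 2). Same-numbered arrays showed no shared deviation: their deviations from the group means had a correlation of -0.03 across the 947 probe sets, which are not independent replicates. This cannot show whether same-numbered samples were prepared together. Of the 12 probe sets, 5 lay within background in both groups, where a change has no measured size.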
